A study of Mus musculus with 10 samples.

Results

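The genes described here are the Wnt ligands, their Frizzled receptors and 2 families of secreted Wnt antagonists, read in white fat taken from the epididymal pad. Members were all genes whose symbol begins with Wnt, Fzd, Sfrp or Dkk followed by a number, each read from the brightest of its probe sets, and 38 of the 18193 genes on the array met this rule. They were 19 Wnt ligands, 10 Frizzled receptors, 4 Sfrp genes, 4 Dkk genes and Fzd10os, a transcript named for lying opposite Fzd10, which the symbol rule takes in. No level was used to choose them. The tissue came from male C57BL/6J mice aged 8 weeks when feeding began, which received a high-fat diet with 60% fat (5 mice) or normal chow, CRF-1 (5 mice), for 8 weeks. Each mouse gave 1 Affymetrix array. The labels name no engineered allele, and the RNA was that of whole tissue.

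Wnt ligands are secreted, lipid-modified glycoproteins. They bind Frizzled receptors, alone or with the co-receptors Lrp5 and Lrp6; in the canonical branch this stabilises beta-catenin, which then acts with TCF and LEF proteins on target genes, while other branches act on cell polarity and calcium. Sfrp proteins carry a Frizzled-like cysteine-rich domain and bind Wnt ligands outside the cell, and most Dkk proteins bind Lrp5 and Lrp6. In adipose tissue canonical Wnt signalling is known to hold preadipocytes back from differentiation, and Sfrp5 is known as a factor secreted by adipocytes.

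Levels below are log2 of the intensity after quantile normalization, and differences are the high-fat diet minus chow on that scale, with the standard error (SE) from limma. A gene passed when its adjusted p, by Benjamini-Hochberg over all 18193 genes, was under 0.05. Levels of different probe sets cannot be set against each other, and no detection calls were used, so a low level says nothing on whether a transcript was present. The median intensity of the 10 arrays as deposited lay between 17.9 and 27.4; with 5 arrays in each group, array number sets the precision. Adipocyte markers were bright in both groups (the mean of 5 markers was 12.07 to 12.60 on high-fat arrays and 10.86 to 12.76 on chow arrays). Marker means of other tissue were higher on chow arrays. The mean of 5 epithelial markers was 4.03 to 4.95 on high-fat arrays and 7.42 to 10.80 on chow arrays. That of 11 epididymis and testis markers was 3.65 to 5.11 on high-fat arrays and 7.22 to 11.72 on chow arrays. None of these epithelial, epididymal or testicular markers was at the floor on all 10 arrays. However, 1 epithelial marker (Cldn7) and 2 epididymis and testis markers (Defb2 and Tnp2) were at the floor on a high-fat array.

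Of the 38 members, Sfrp5, Sfrp4 and Wnt8b rose on the high-fat diet and Wnt4, Fzd10, Fzd6 and Fzd3 fell. These 7 were 18.4% of the members, against 25.9% of all genes tested, so members passed no more often than genes at large. For rises alone the share over all genes was 12.9%, and for falls 13.1%. The median difference was -0.20 over the members and -0.037 over all genes. Among the 31 members that did not pass, 14 differences lay above 0 and 17 below. For 6 members the groups did not overlap, which is 15.8% of the members against 22.5% of all genes. A mean level above that of the median probe set was found for 19 members, of which 4 passed (21.1%, against 33.8% of all genes above that level). Of the other 19 members 3 passed (15.8%, against 10.9% of all genes at or below that level).

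**Figure D1:**
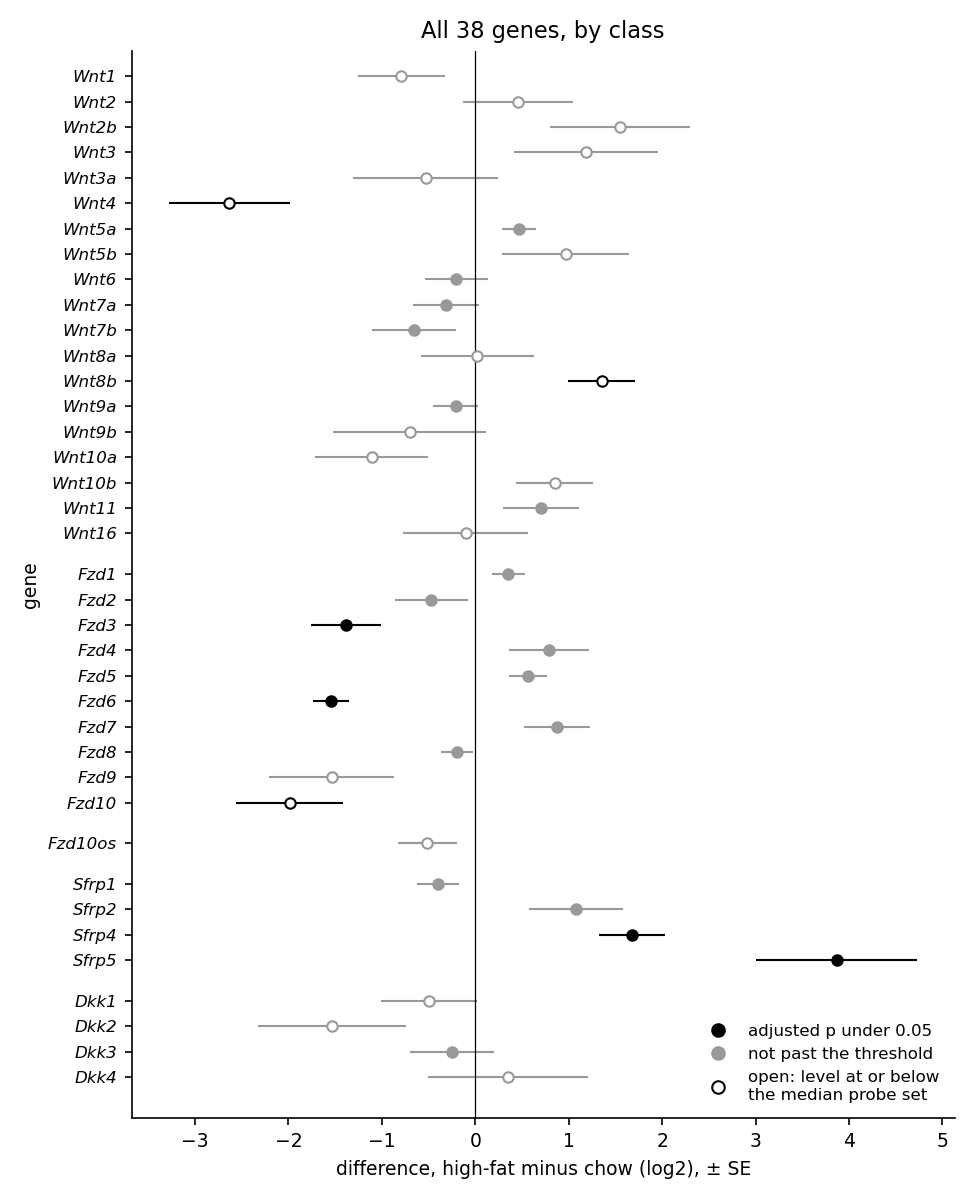
Difference between the high-fat diet and chow for each of the 38 genes on the log2 scale (x axis), with bars of 1 SE, n = 5 arrays in each group, grouped by class from top to bottom: Wnt ligands, Frizzled receptors, Fzd10os, Sfrp and Dkk genes. Black points and outlines mark an adjusted p under 0.05, and open points a mean level at or below the median probe set; Sfrp5 lies farthest to the right at 3.87 and Wnt4 farthest to the left at -2.63.

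The promoters of Sfrp5 and Wnt4, the members with the largest rise and the largest fall, are shown with GC boxes in capitals. They are the 250 bases before the RefSeq start of each gene in build GRCm38.p6, at chr19:42202253-42202502 on the minus strand for Sfrp5 and chr4:137277385-137277634 on the plus strand for Wnt4, written 5′ to 3′ on the strand of the gene.
Sfrp5: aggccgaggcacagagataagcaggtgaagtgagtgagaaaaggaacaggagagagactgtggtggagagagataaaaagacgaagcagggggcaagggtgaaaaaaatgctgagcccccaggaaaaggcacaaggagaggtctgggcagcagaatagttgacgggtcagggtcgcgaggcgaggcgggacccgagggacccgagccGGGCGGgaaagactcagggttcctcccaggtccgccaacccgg
Wnt4: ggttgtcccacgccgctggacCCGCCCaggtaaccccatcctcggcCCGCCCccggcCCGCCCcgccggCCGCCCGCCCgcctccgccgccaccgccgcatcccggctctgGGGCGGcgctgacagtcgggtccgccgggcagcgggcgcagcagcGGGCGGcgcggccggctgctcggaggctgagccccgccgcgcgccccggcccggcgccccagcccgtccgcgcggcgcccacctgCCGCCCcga
The Sfrp5 window was 59.6% G and C with 13 CpG dinucleotides, and the Wnt4 window 85.2% with 44. Of the 38 members 25 were matched by symbol to a RefSeq promoter, with 28 windows in all, since Wnt11 and Wnt5b have several starts. Their median G and C content was 69.4%, against 55.6% over the 21263 windows of protein-coding genes. Searched on both strands, the GC box GGGCGG was found in 20 of 28 member windows (71.4%, against 42.6% of protein-coding windows), with 1 match in Sfrp5 and 8 in Wnt4, 2 of which share letters. The TCF and LEF core CTTTGA was in 4 member windows, 14.3%, against 12.7%, and in neither of the windows printed. The TATA box TATAAA was in 4 (14.3%, against 11.6%) and the nuclear receptor core motif AGGTCA in 1 (3.57%, against 12.8%). These are matches of letters in short windows and nothing more.

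Among the 19 ligands 1 rose and 1 fell (10.5%, against 25.9% of all genes). Of the 19, 13 had a mean level at or below the median probe set, where 10.9% of all genes passed. Wnt4, a ligand known for roles in kidney and gonad development, had levels of 2.91, 3.54, 3.16, 4.27 and 1.47 on high-fat arrays 1 to 5, against 7.16, 6.81, 5.32, 4.44 and 4.79 on chow arrays 1 to 5. Every high-fat array lay below every chow array, and chow arrays 1 and 2 were the highest. Wnt4 fell by 2.63 (SE 0.65, limma adjusted p = 0.0124), and fell by 1.49 on the log2(value + 16) scale, where small changes at low intensity count for less; a 2-sided exact permutation test gave p = 0.00794, the smallest possible with 5 arrays against 5. Its other probe set had a difference of -1.96 and did not pass (limma adjusted p over all probe sets = 0.107). Without chow arrays 1 and 2 the Wnt4 difference was -1.78 (limma adjusted p = 0.0335), and without chow arrays 1, 2 and 3 it was -1.54 and did not pass (limma adjusted p = 0.116).

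Wnt8b, a ligand best known from the developing forebrain, was dim. Its levels were 4.04, 4.56, 4.08, 5.02 and 3.78 on high-fat arrays 1 to 5, against 2.80, 3.18, 2.52, 3.69 and 2.54 on chow arrays 1 to 5. The groups did not overlap, though the lowest high-fat array lay only just above the highest chow array. Wnt8b rose by 1.35 (SE 0.36, limma adjusted p = 0.0182), which was 0.59 on the log2(value + 16) scale. In deposited units the Wnt8b probe set read 13.8 to 25.9 on high-fat arrays and 5.62 to 15.3 on chow arrays, so these overlapped before normalization. The other Wnt8b probe sets had differences of 1.25 and 0.24 and did not pass. With the mean of its 3 probe sets the difference was 0.95 (limma adjusted p = 0.0528), and without chow arrays 1, 2 and 3 that of Wnt8b was 1.18 (limma adjusted p = 0.0877).

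The ligand of non-canonical signalling Wnt5a, read by 4 probe sets, had a difference of 0.47 at its brightest (SE 0.18, limma adjusted p = 0.0818), and the others had 0.45, 0.66 and 0.82. All 4 differences lay above 0 and none passed over all probe sets. Its levels were 7.17 to 7.83 on high-fat arrays and 6.51 to 7.29 on chow arrays, which overlap. Wnt5a rose by 0.79 with each array centred on its median (limma adjusted p = 0.00723), where the median difference of all genes was 0.21 in place of -0.037, and by 0.56 without chow replicate 4 (limma adjusted p = 0.04999). Wnt11, another ligand of the non-canonical branch, had a difference of 0.70 (SE 0.40, limma adjusted p = 0.235). It was lowest in chow array 1 at 3.59, and from 4.84 to 5.98 in the other chow arrays, against 5.17 to 6.11 on high-fat arrays.

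Wnt10b, the ligand known for restraining adipogenesis, lay near the bottom of the scale, at 0.98 to 1.71 on high-fat arrays and 0.02 to 1.43 on chow arrays. The difference of 0.85 did not pass (SE 0.41, limma adjusted p = 0.157) and was 0.08 on the log2(value + 16) scale. The probe sets of Wnt1, Wnt2b, Wnt3, Wnt3a, Wnt8a and Wnt16 also gave low signal, with mean levels of 0.66 to 2.10 on the high-fat diet and -0.13 to 2.17 on chow. Wnt3 was at the floor on 4 chow arrays and 1 high-fat array. None of these passed: the differences of Wnt2b and Wnt3 were 1.55 and 1.18, and those of Wnt1, Wnt3a, Wnt8a and Wnt16 were -0.79, -0.53, 0.023 and -0.10.

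The remaining ligands did not pass either. Wnt10a had a difference of -1.11 (SE 0.60), Wnt9b -0.70 (SE 0.82), Wnt7b -0.65 (SE 0.45), Wnt7a -0.32 (SE 0.35), Wnt9a -0.21 (SE 0.24) and Wnt6 -0.20 (SE 0.34). Wnt5b and Wnt2 differed by 0.97 (SE 0.68) and 0.46 (SE 0.58). Wnt7b was high in the 2 chow arrays with most epithelial signal: it read 7.26 and 6.68 in chow arrays 1 and 2 and 5.20 to 5.27 in chow arrays 3 to 5, against 4.72 to 6.04 on high-fat arrays.

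**Figure D2:**
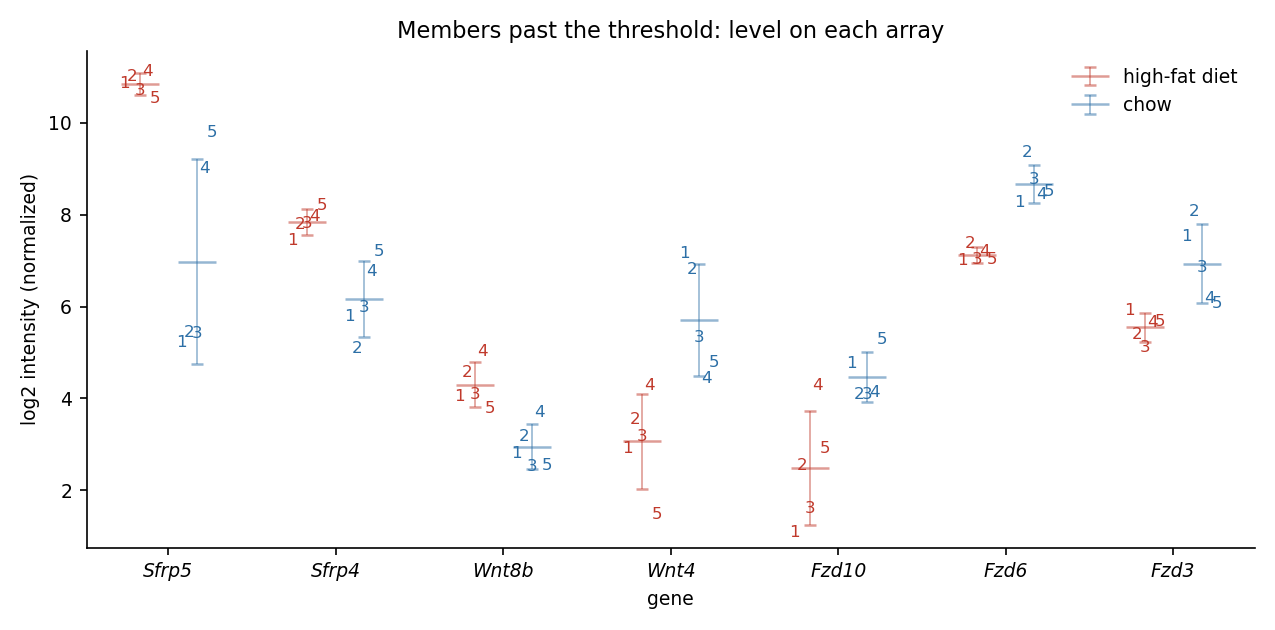
Level of the 7 genes that passed, with log2 normalized intensity on the y axis. Digits mark the array number in the high-fat group (red, left of each pair) and the chow group (blue, right), and each bar gives the mean with 1 SD of 5 arrays. Chow arrays of Sfrp5 spread from 5.23 to 9.78 while high-fat arrays stay between 10.53 and 11.11; the groups of Fzd10 overlap through high-fat array 4.

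Of the 10 Frizzled receptors 3 fell and none rose by limma (30%, a share near the 25.9% of all genes). At an unadjusted p under 0.05 there were 4 lower and 2 higher, with no share of all genes counted at that threshold. Fzd6, a receptor of planar polarity signalling in skin and hair, had levels of 6.999, 7.38, 7.02, 7.20 and 7.02 on high-fat arrays 1 to 5, against 8.26, 9.35, 8.78, 8.44 and 8.51 on chow arrays 1 to 5. Both groups were tight and did not overlap. Fzd6 fell by 1.54 (SE 0.19, limma adjusted p = 0.000258), the smallest adjusted p of all members, and a fall passed as well without chow arrays 1, 2 and 3 (-1.35). Neither of its other probe sets, both dim, passed (0.35 and -1.34), and the mean of the 3 differed by -0.84 (limma adjusted p = 0.115).

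Fzd3, a receptor of planar polarity signalling in axon growth, read 5.92, 5.40, 5.10, 5.65 and 5.67 on high-fat arrays 1 to 5, against 7.52, 8.06, 6.85, 6.17 and 6.08 on chow arrays 1 to 5. Chow arrays 4 and 5 lay just above the highest high-fat array, and chow arrays 1 and 2 far above. In deposited units Fzd3 read 39.6 to 62.4 on high-fat arrays and 55.0 to 257.3 on chow arrays, which overlap. Fzd3 fell by 1.39 (SE 0.37, limma adjusted p = 0.0188). Of its 5 other probe sets, 2 had differences below 0 (-0.49 and -0.088) and 3 above (0.29, 1.58 and 0.35), and none passed. With the mean of its 6 probe sets the Fzd3 difference was 0.043, and without high-fat replicate 3 the fall missed the threshold (limma adjusted p = 0.0501). It was -0.82 without chow arrays 1 and 2 (limma adjusted p = 0.0238) and -0.57 without chow arrays 1, 2 and 3 (limma adjusted p = 0.104).

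Fzd10, a receptor with a restricted adult expression, was dim, at 1.09, 2.53, 1.60, 4.29 and 2.90 on high-fat arrays 1 to 5, against 4.76, 4.08, 4.09, 4.13 and 5.29 on chow arrays 1 to 5. The groups overlapped through high-fat array 4. Fzd10 fell by 1.99 (SE 0.58, limma adjusted p = 0.0267; p = 0.0317 by exact permutation, 2-sided), and fell by 0.76 on the log2(value + 16) scale. The call was lost when high-fat replicate 1, 2 or 3 or chow replicate 1 or 5 was left out (limma adjusted p from 0.0515 to 0.0669), and without chow arrays 1, 2 and 3 (limma adjusted p = 0.0670). The other Fzd10 probe set differed by -0.031 and did not pass, and with the mean of both the Fzd10 difference was -1.01 (limma adjusted p = 0.154). Fzd10os, the opposite-strand transcript, had a difference of -0.52 (SE 0.32, limma adjusted p = 0.268).

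The receptors Fzd1, Fzd4, Fzd5 and Fzd7 had bright probe sets and differences above 0 that did not pass. Fzd4, a receptor of Norrin and of blood vessels, had levels of 9.76 to 10.43 on high-fat arrays and of 7.80 to 10.38 on chow arrays, a difference of 0.79 (SE 0.43, limma adjusted p = 0.208). Chow array 2 was the lowest and chow array 5 as high as the high-fat arrays, and the Fzd4 difference was 0.069 without chow arrays 1 and 2. Fzd7 differed by 0.87 (SE 0.36, limma adjusted p = 0.0969), Fzd5 by 0.56 (SE 0.21, limma adjusted p = 0.0675) and Fzd1 by 0.35 (SE 0.17, limma adjusted p = 0.165). These calls depended on the scaling: Fzd1, Fzd5 and Fzd7 rose on the values as deposited (0.64, 0.74 and 1.10), and all 4 rose with each array centred on its median (0.78, 0.87, 1.24 and 1.24 for Fzd1, Fzd5, Fzd7 and Fzd4). The median difference of all genes was 0.078 and 0.21 in those fits. Fzd5 and Fzd7 also rose without chow arrays 1 and 2 (0.76 and 0.85). The other probe set of Fzd5, singled out after its value was seen, rose by 1.68 (SE 0.33, limma adjusted p over all probe sets = 0.00456). Fzd2, Fzd8 and Fzd9 had differences of -0.47, -0.20 and -1.54 and did not pass, and the other Fzd2 probe sets differed by 0.46 and 0.62.

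The Sfrp antagonists held the largest rise of all members. Sfrp5 had levels of 10.86, 11.01, 10.69, 11.11 and 10.53 on high-fat arrays 1 to 5, against 5.23, 5.44, 5.41, 9.01 and 9.78 on chow arrays 1 to 5. High-fat arrays were alike, while chow arrays fell into a low set, arrays 1 to 3, and a higher set, arrays 4 and 5, which were still below every high-fat array. Sfrp5 rose by 3.87 (SE 0.86, limma adjusted p = 0.00775), or 14.6-fold. The deposited intensity of its probe set was 1700 to 2291 on high-fat arrays and 37.2 to 700.1 on chow arrays. Its second probe set rose by 4.06 (SE 0.96, limma adjusted p over all probe sets = 0.0128). The size rested on the low chow arrays: the rise was 2.77 without chow arrays 1 and 2 and 1.44 without chow arrays 1, 2 and 3, and passed in both fits (limma adjusted p = 0.0169 and 0.000758).

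Sfrp4, known as an antagonist raised in obese fat of humans, had levels of 7.43, 7.78, 7.82, 7.96 and 8.204 on high-fat arrays 1 to 5, against 5.78, 5.09, 5.98, 6.76 and 7.21 on chow arrays 1 to 5. The groups did not overlap. Sfrp4 rose by 1.68 (SE 0.35, limma adjusted p = 0.00557), and the rise was 1.19 without chow arrays 1 and 2 and 0.86 without chow arrays 1, 2 and 3 (limma adjusted p = 0.00435 and 0.00946). Sfrp4 has a single probe set.

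Sfrp2, an antagonist of stromal cells, had levels of 6.42, 7.68, 7.59, 7.81 and 7.59 on high-fat arrays 1 to 5, against 8.15, 5.12, 6.38, 6.41 and 5.61 on chow arrays 1 to 5. Chow array 1 was the highest of all 10 and high-fat array 1 the lowest of its group, so the groups overlapped. The difference of 1.08 did not pass (SE 0.50, limma adjusted p = 0.141), but Sfrp2 rose by 1.53 without chow replicate 1 (limma adjusted p = 0.0107) and by 1.28 without chow arrays 1 and 2 (limma adjusted p = 0.0090). Sfrp1, which binds Wnt ligands in many tissues, differed by -0.40 at its brightest probe set (SE 0.23, limma adjusted p = 0.229) and by -0.43, 0.014, 0.63 and 0.61 at the others, none of which passed.

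None of the 4 Dkk genes passed by limma (against 25.9% of all genes), and 0 had an unadjusted p under 0.05. With 4 genes this is too few to compare with that share. Dkk3, a divergent member not known to bind Lrp5 or Lrp6 as the others do, had levels of 3.20 to 5.83 on high-fat arrays and 4.51 to 5.53 on chow arrays, a difference of -0.25 (SE 0.45). Dkk1, Dkk2 and Dkk4, which bind Lrp5 and Lrp6, were dim, with differences of -0.50 (SE 0.51), -1.53 (SE 0.79) and 0.35 (SE 0.86).

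The arrays within the chow group were ordered alike by several lists and members. The adipocyte and adipose stromal progenitor list means were both lowest in chow array 2. They then increased over chow arrays 1, 3, 4 and 5, and the epithelial mean ran in exactly the reverse order. The stromal mean spanned only 8.33 to 8.72 on chow, and its genes did not all follow it. Dcn, Col1a1 and Pi16 were lowest in chow array 2 and Cd34 in chow array 1. Pdgfra was instead highest in chow array 2 (10.72), and Dpp4 was highest in chow array 1 (8.71) and lowest in chow array 5 (6.41). Sfrp4 and Fzd4 followed the order shared by the adipocyte and stromal means over the 5 chow arrays, and Fzd3 the epithelial order. Wnt10a, Wnt3a and Wnt8a also followed the epithelial order and Wnt9a the adipocyte order. On high-fat arrays Fzd4 again ran in the adipocyte order, but Sfrp4 and Fzd3 did not keep theirs. Sfrp4 increased from high-fat array 1 to 5, while the adipocyte mean was highest on high-fat array 1. Sfrp5 did not follow the adipocyte list: chow array 3 had an adipocyte mean of 12.57, close to 12.68 and 12.76 in chow arrays 4 and 5, yet its Sfrp5 level of 5.41 was as low as that of chow arrays 1 and 2. Over the 5 chow arrays Sfrp5 ran in exactly the reverse order of the smooth muscle and pericyte list. These orders were picked out after the values were seen and are a description of 5 arrays in each group with no test.

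**Figure D3:**
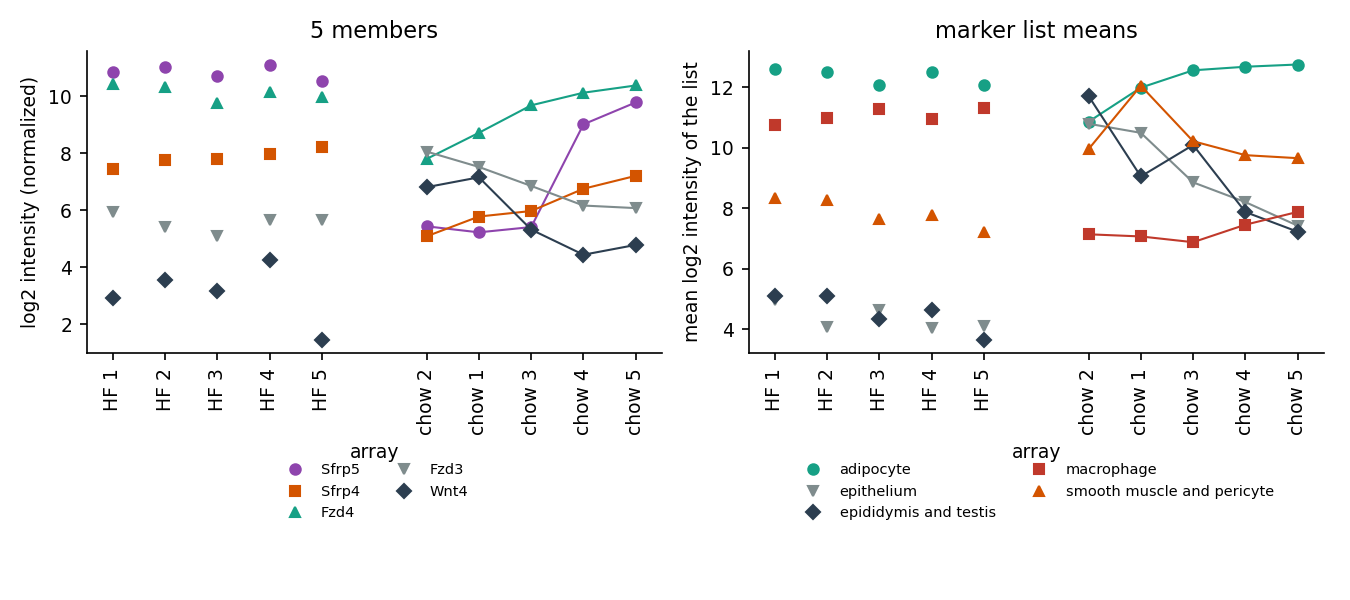
Log2 normalized intensity of Sfrp5, Sfrp4, Fzd4, Fzd3 and Wnt4 (left panel) and the mean of 5 marker lists (right panel) on each array (x axis), high-fat arrays (HF) first and chow arrays after them in the order of their adipocyte markers, with lines joining the chow arrays only. Fzd4 and Sfrp4 climb with the adipocyte list across the chow arrays, Fzd3 declines with the epithelial list, and Sfrp5 stays low until chow array 4.

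Marker lists moved with the members, and their part in the members' differences was not tested. All 5 epithelial markers, 7 of 11 epididymis and testis markers and 5 of 6 smooth muscle and pericyte markers fell on the high-fat diet, as did Wnt4, Fzd3, Fzd6 and Fzd10. All 6 macrophage markers rose, with a list mean of 10.74 to 11.33 on high-fat arrays and 6.88 to 7.88 on chow arrays, as did Sfrp4, Sfrp5 and Wnt8b. None of 5 adipocyte markers passed by limma, also at an unadjusted p under 0.05, and 2 of 6 stromal progenitor markers rose. In whole tissue, fewer cells of a type and less RNA per cell cannot be told apart. The mean of the epididymis and testis markers was itself lower on every high-fat array than on any chow array. With this mean in the fit as a covariate, 0 members passed by limma, against 3.44% of all genes. At an unadjusted p under 0.05 there were 3 members, with no share of all genes counted at that threshold. Covariate and diet run together over these arrays, so the fit can hardly separate them, and no conclusion is drawn from the loss of calls. The differences of Sfrp5, Sfrp4 and Wnt4 were -0.28 (SE 1.27), -0.34 (SE 0.34) and -0.23 (SE 1.18). Those of Fzd6, Fzd10 and Wnt8b were -0.68 (SE 0.30), -3.05 (SE 1.24) and 1.56 (SE 0.81). For all of these but Sfrp4 the SE was larger than without the covariate.

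Other genes of the pathway passed in 28 of 85 cases (32.9%, against 25.9% of all genes), with 21 lower and 7 higher and a median difference of -0.12. Among 17 co-receptors, R-spondins and their partners 5 fell and 1 rose (35.3%). Rnf43, a ubiquitin ligase that removes Frizzled receptors from the membrane, fell by 5.51 (SE 0.74, limma adjusted p = 0.000384), and fell by 2.03 on the log2(value + 16) scale, since it was at or near the floor on most high-fat arrays. Its levels were -0.60, -0.30, -0.60, 0.25 and 1.95 on high-fat arrays 1 to 5, against 6.39, 7.68, 5.19, 5.06 and 3.93 on chow arrays 1 to 5. The chow arrays of Rnf43 ran in the order of the epithelial mean, picked out after the values were seen. The part of the marker lists in the differences of the pathway genes was not tested. Rspo3, an R-spondin that potentiates Wnt signals, fell by 3.03 (SE 0.61). Ptk7, a pseudokinase co-receptor of planar polarity, fell by 2.30 (SE 0.50). On the log2(value + 16) scale the differences of Rspo3 and Ptk7 were -1.94 and -1.06. Musk, the muscle receptor kinase with a Frizzled-like domain, rose by 1.80 but by 0.33 on the log2(value + 16) scale. Lrp5 and Lrp6, the co-receptors to which Dkk1 binds, had differences of -0.21 (SE 0.23) and 0.089 (SE 0.12) and did not pass.

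Of 14 genes of Wnt secretion and other extracellular regulators, 4 fell and 2 rose (42.9%). Dkkl1, a Dkk-like gene of spermatids, fell by 3.54 (SE 1.18), though its groups overlapped. Chow array 4 (0.72) lay within the high-fat range of -0.25 to 1.10, and chow array 5 (1.46) just above it. The antagonist Sost fell by 3.51 (SE 1.07), and Sostdc1 fell by 2.74 (SE 0.68). On the log2(value + 16) scale the differences of Dkkl1, Sost and Sostdc1 were -1.43, -2.07 and -0.72, and Sostdc1 was at or near the floor on some high-fat arrays. Sost was at 10.56 in chow array 1 and 4.25 to 5.78 in the other chow arrays, against 1.78 to 3.86 on high-fat arrays. Serpinf1, which encodes the secreted factor PEDF, rose by 2.63 (SE 0.40, limma adjusted p = 0.000815). Porcn and Wls, which Wnt ligands need for their lipid and their export, differed by -0.12 (SE 0.23) and 0.053 (SE 0.25).

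Inside the cell, 9 of 39 genes fell and 1 rose (25.6%, a share near that of all genes). Lef1, a transcription factor partner of beta-catenin, fell by 2.28 (SE 0.74), the polarity cadherin Celsr1 fell by 2.05 (SE 0.38) and the corepressor Tle2 fell by 1.40 (SE 0.38), while Nfatc2, a calcium-regulated transcription factor, rose by 1.47 (SE 0.23). The differences of Lef1 and Celsr1 were -1.44 and -1.25 on the log2(value + 16) scale. Lef1 (limma adjusted p = 0.0429) read 8.43 in chow array 2 and 5.72 and 5.76 in chow arrays 1 and 3. Chow arrays 4 and 5 (3.98 and 3.99) lay just above the highest high-fat array (3.83). Ctnnb1, which encodes beta-catenin, differed by -0.065 (SE 0.082).

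Among 20 target genes 7 fell and 3 rose (50%, against 25.9% of all genes), and 5 of these 20 genes also stand in another of the lists. Of those 5, Rnf43, Notum, Lef1 and Znrf3 fell and Lgr5 did not pass, so these falls are counted in both lists. The list was chosen with earlier results of these data known, so no conclusion on signalling is drawn from its share. Rnf43 fell as above, Sp5 fell by 3.01 (SE 0.68) and fell by 0.73 on the log2(value + 16) scale, and Notum, a lipase that inactivates Wnt ligands, fell by 2.38 (SE 0.57; -1.14 on that scale). Cd44, which many cells including macrophages carry, rose by 3.796 (SE 0.29). Axin2, a widely used readout of canonical signalling, was named after its values were seen. It had levels of 6.56, 6.26, 6.14, 6.58 and 6.39 on high-fat arrays 1 to 5, against 6.64, 7.80, 6.96, 6.93 and 7.31 on chow arrays 1 to 5. The groups lay close together without overlap, and Axin2 fell by 0.74 (SE 0.21, limma adjusted p = 0.0266). Ccn5 and Twist1, the other genes of the list that rose, were also named after their values were seen. Their differences were 2.23 (SE 0.73) and 1.17 (SE 0.35), with limma adjusted p = 0.0449 and 0.0327.

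**Figure D4:**
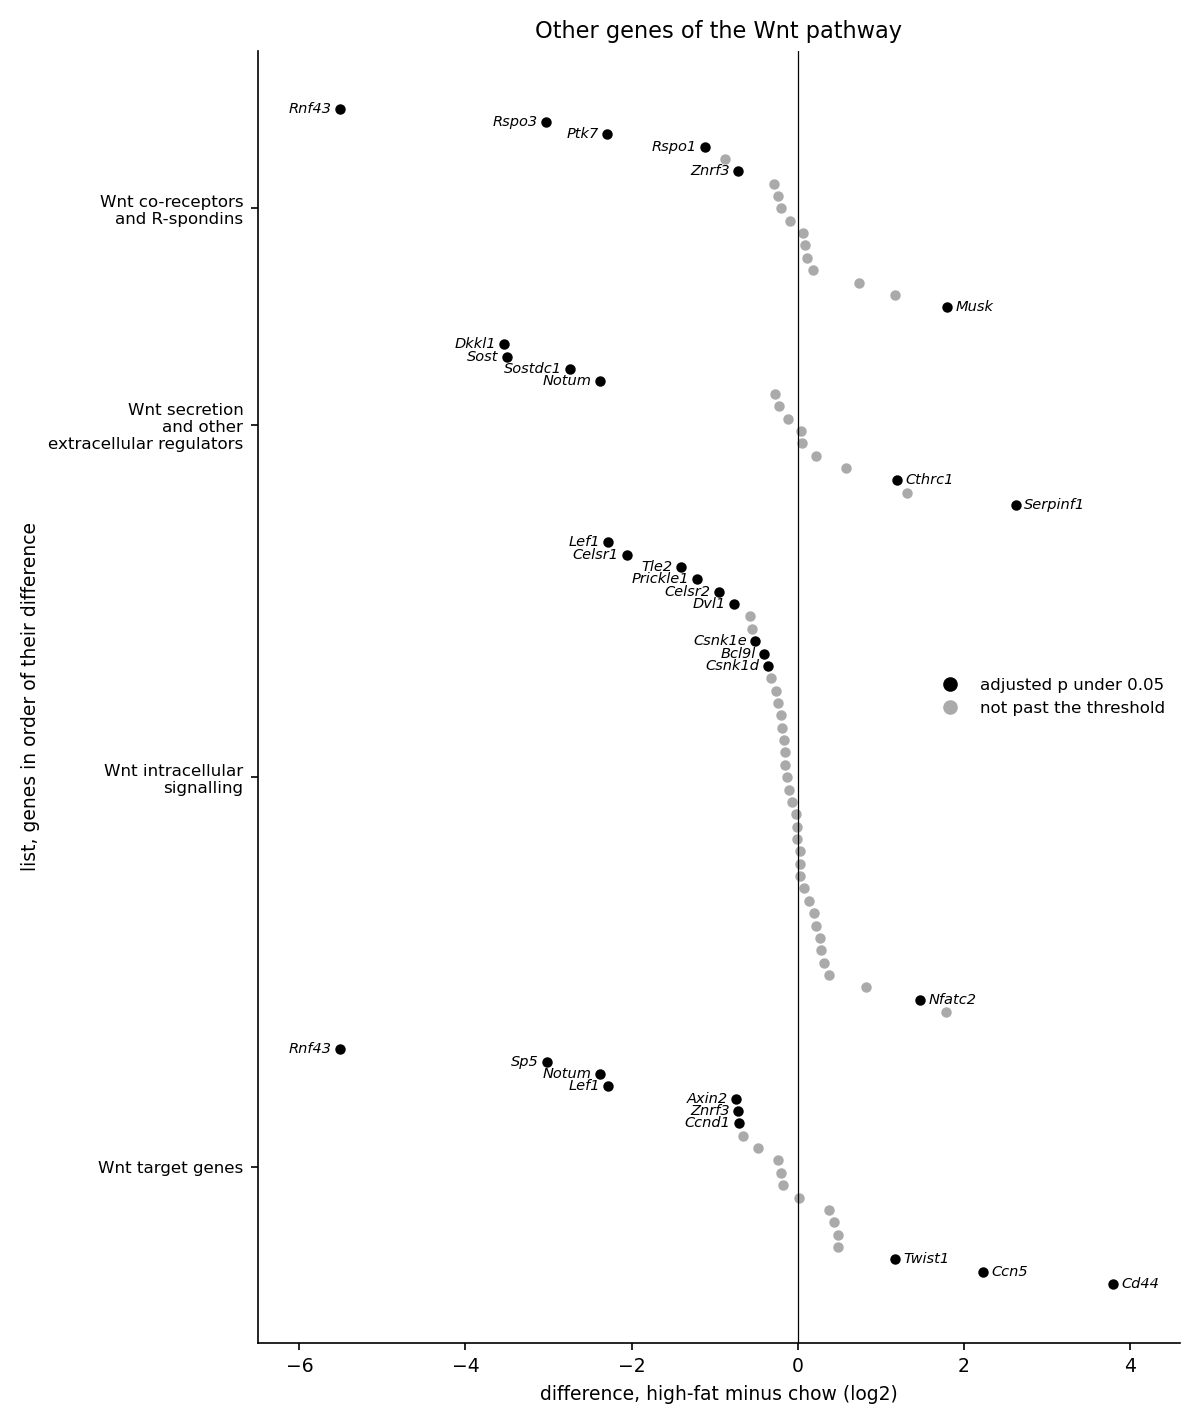
Difference between the high-fat diet and chow on the log2 scale (x axis) for the other genes of the Wnt pathway, 1 point for each gene, in 4 lists from top to bottom and in order of difference within each; black points passed an adjusted p of 0.05 and carry their names. Of 85 genes 21 passed on the left and 7 on the right, with genes of 2 lists drawn in both.

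**Figure D5:**
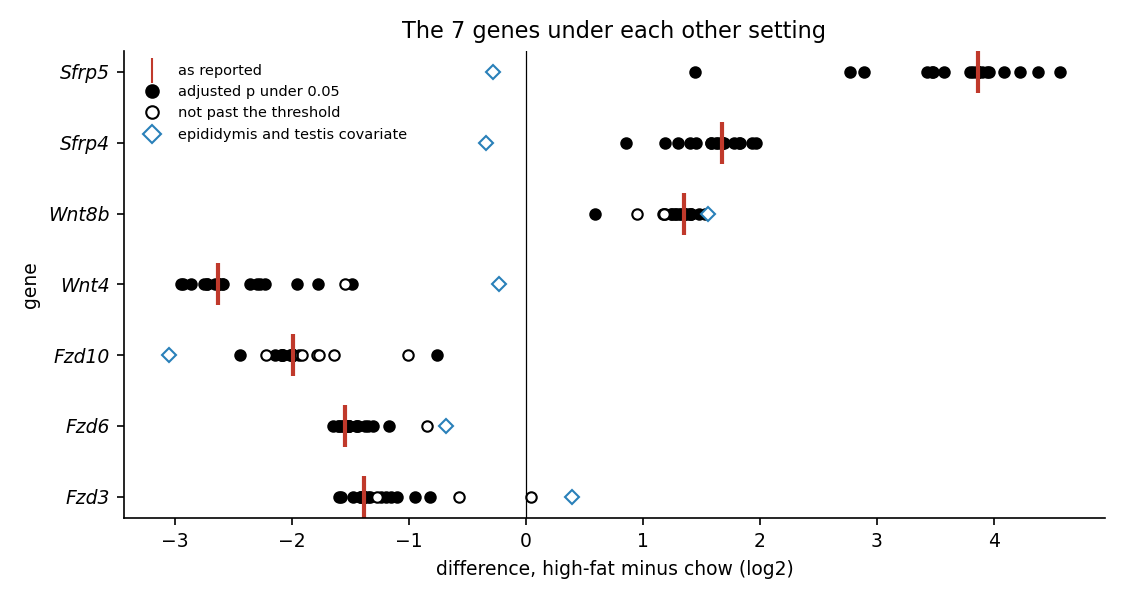
Difference between the high-fat diet and chow on the log2 scale (x axis) of the 7 members that passed (y axis), as reported (red bar) and under each other way of processing the data (points, filled where the adjusted p was under 0.05). Blue diamonds mark the covariate fit (mean of epididymis and testis markers), the setting farthest from the reported value for Sfrp5, at -0.28, and for Sfrp4, at -0.34.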

How the data were processed

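Epididymal fat RNA of 10 mice was measured on 1 array each. What the authors deposited is a table of linear intensity values (45101 probe sets); the sources used here do not give the summary algorithm or scaling behind it. Groups and replicate numbers came from the sample titles. Values under the 5th percentile of the table were set to it (0.658), and all were log2 transformed and quantile normalized, since the array medians differed by 0.613. Probe sets with exactly 1 symbol (34958) were named from the platform annotation, updated through RefSeq gene IDs; the 64 control probe sets were left out. Each gene was read from the probe set with the highest mean normalized level, giving 18193 genes. They were fitted with limma 3.58.1 in R 4.3.3 (lmFit, eBayes with a trend, Benjamini-Hochberg over all genes, threshold 0.05), without a covariate. Other probe sets were tested in a fit of all non-control probe sets. For single values an exact permutation test, 2-sided, was added.

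Members past the threshold are given array by array, the others by their difference or range; up to 4 genes of each pathway list past the threshold are named by size of change. The members, lists, tests and alternatives were chosen with earlier results of these data known. Alternatives were other scalings, floors, filters, probe-set choices, variance settings, a replicate block, arrays left out and a covariate; leaving out chow arrays 1, 2 and 3 was chosen after seeing the data. All fits were tried first on simulated data and checked there.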

Additional observations from a re-analysis of the deposited data

Results flagged for a closer look

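In 6 of 76 groups of 5 arrays (38 genes, 2 groups each), 1 array stood apart from the other 4 by Dixon's criterion. About 3.8 flags would come up in independent groups of normal values. These groups share arrays and some hold floored values, so the count cannot be set against that figure. Fzd2 was 7.84 in chow array 1, with the next chow array at 6.03. Sfrp2 was 6.42 in high-fat array 1, with the next at 7.59. The other flags belong to dim probe sets: Wnt16 was -0.053 in high-fat array 2, with the next at 0.76; Wnt10b was 1.43 in chow array 2, with the next at 0.41; Wnt3 was 1.78 in chow array 4, with the others at the floor; and Wnt9b was 1.24 in chow array 2, with the next at 4.18. The Wnt3 flag was fixed by the floor: with the other chow arrays tied there, any higher value is flagged. These values stand apart from their groups, and the cause was not tested.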

How the results depend on the processing

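The 7 members that passed kept their direction under every alternative in which they were tested (Fzd10, Wnt4 and Wnt8b were not among genes above the median level), except in 2 fits: Fzd3 was 0.043 with the mean of all its probe sets, and with the epididymis and testis covariate Fzd3 was 0.40, Sfrp4 -0.34 and Sfrp5 -0.28. The 3 rises and 4 falls among members became 6 rises on the values as deposited, 8 with each array centred on its median, 6 with array weights, 6 rises without chow arrays 1 and 2, and 0 rises and 0 falls with the covariate; falls numbered 1 with the mean of all probe sets, 2 among genes above the median level (fewer members are tested there) and 1 without chow arrays 1, 2 and 3. With 1 array left out, 3 to 5 members rose and 2 to 5 fell; the 5 rises came without chow replicate 1 (Fzd7 and Sfrp2 passed) and the 2 falls without high-fat replicate 3 (Fzd10 and Fzd3 missed).

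Of the other pathway genes 7 rose and 21 fell. Rises numbered 18 with median centring, 11 without chow arrays 1 and 2 and 1 with the covariate, and 4 to 9 with 1 array left out. Falls numbered 13 as deposited, 13 with median centring, 12 with the mean of all probe sets and 1 with the covariate, and 12 to 22 with 1 array left out; 13 fell without high-fat replicate 1, 12 without high-fat replicate 2 and 13 without high-fat replicate 5, where rises numbered 4. Reversed values were Dkkl1 2.51, Lef1 1.61, Tle2 0.27, Ccn5 -1.01 and Twist1 -0.76 with the covariate, Csnk1d 0.096 with median centring and Bcl9l 0.065 with the mean of all probe sets; none passed. Over all genes 2338 rose and 2379 fell, against 4420 and 1440 with median centring, 1491 falls as deposited, 3596 falls without chow arrays 1 and 2, and 442 and 184 with the covariate. The share of changed genes that rose was 64.8% as deposited and 75.4% with median centring. A further 41 of 892 recomputed member differences changed sign while past the threshold in neither fit. The causes were not tested.

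With the replicate number as a block, 3 members rose and 3 fell (Fzd10 missed), and 1898 genes rose and 1864 fell. Arrays that share a number had correlations of deviations from -0.020 to 0.0056, and none correlated best with its own number, so the numbers were not treated as pairs. Dim probe sets limit most ligands.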

Other observations

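Chow array 1 differed from the other chow arrays in several Wnt regulators. Wif1, an antagonist that binds Wnt ligands, read 8.81 in chow array 1 and 2.62 to 3.96 in the other chow arrays, against 4.77 to 5.35 on high-fat arrays, and did not pass (difference 0.58, SE 0.98, limma adjusted p = 0.708). Chow array 1 was also the highest of all 10 arrays for Fzd2, Sfrp2, Wnt7b, Wnt4, Sost and Rspo3, and for the means of the mesothelium list (8.37) and the smooth muscle and pericyte list (12.06). Frzb, which encodes a further Frizzled-related antagonist, was dim and differed by 1.32 (SE 0.88).

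The array carries 4 pairs of ligand genes that neighbour each other in the RefSeq table of GRCm38.p6 with no protein-coding gene between. Wnt6 and Wnt10a had differences of -0.20 and -1.11, and Wnt3a and Wnt9a of -0.53 and -0.21. The differences of Wnt9b and Wnt3 were -0.70 and 1.18, and those of Wnt10b and Wnt1 were 0.85 and -0.79. None of these 8 genes passed.

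Spread between arrays was larger on chow than on the high-fat diet for 23 of 38 members (60.5%), against 76.8% of all genes.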
